A study of Arabidopsis thaliana with 26 samples.

Results

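The 5′ external transcribed spacer (5′ ETS) is the piece of the ribosomal RNA precursor that lies upstream of the 18S rRNA and is cut off and destroyed during ribosome assembly. Described here are the shortest of its degradation intermediates in *Arabidopsis* leaves, those whose 3′ end lies from P22 to P139 and carries no added nucleotide. An end is named by its distance in nt from the processing site P, where the excised stretch of the 5′ ETS known as P-P′ begins, so that P22 stands for an intermediate of 22 nt. The stretch has 118 positions, all of which held at least 1 untailed read, of 389 positions with an untailed read in the whole table. Together they held 11500 of 173861 untailed reads (6.61%). The range is defined by position alone, and was chosen with earlier results of these data known.

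In 3′RACE-seq, total RNA receives an adapter at its 3′ ends, the ligated molecules are amplified from a primer at the start of P-P′, and the sequenced junction gives the last nucleotide of each intermediate and any tail after it. The primer fixes the 5′ end, so the length of an intermediate is read from its 3′ end only. Rosette leaves of 13 genotypes were sampled with 2 biological replicates each, which gives 26 libraries with 1464 to 16835 untailed reads. Exo9, the ring of the RNA exosome, is inactive in *rrp41* RRP41Pi- and *rrp41* RRP41Pi-Cat-. These are *rrp41* null plants in which a transgene under the putative *RRP41* promoter supplies a tagged RRP41 subunit with a mutated phosphate site (Pi-), or with mutated phosphate and metal sites (Pi-Cat-). Exo9 is active in *rrp41* RRP41WT, which carries the wild-type transgene in the same null, and in Col-0, the wild type with its endogenous RRP41. RRP41Pi-Cat-, RRP41WT and endogenous RRP41 were also combined with *mtr4*, a T-DNA mutant of an RNA helicase, with *rrp6L2*, a T-DNA mutant of an exoribonuclease, and with *RRP44KD rrp6L2*, in which an artificial microRNA lowers RRP44 in the *rrp6L2* mutant. All plants are of the Columbia accession. The labels give the genotype of each sample, and no RNA level that could check it was part of the table.

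The exosome degrades RNA from the 3′ end. In yeast and animals its ring has no catalytic activity of its own and the associated enzymes RRP6 and RRP44 carry it out, whereas plant Exo9 has kept a phosphorolytic site in RRP41. MTR4 is the helicase that feeds nucleolar substrates to the exosome. P-P′ is a classical nucleolar substrate of the complex.

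The reference of the amplicon from P22 to P139 is shown because most short intermediates ended in 6 neighbouring nucleotides of it. These, P131 to P136, are in capitals, read 5′ to 3′.
P22 to P139: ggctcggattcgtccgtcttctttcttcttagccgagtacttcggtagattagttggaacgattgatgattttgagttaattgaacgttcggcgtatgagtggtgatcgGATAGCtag
In the TAIR10.1 assembly this stretch matches chr3:14197136-14197253 on the plus strand and nowhere else, although the part from P120 to P139 also occurs on chromosome 2, at chr2:3263-3282. The 18S rRNA gene AT3G41768 starts at 14197677, which is 424 nt downstream. At its 5′ end the stretch overlaps AT3G06345, a gene annotated as a miRNA that ends at 14197147. Of its bases, 44.9% are G or C. rRNA genes are repeated and the reads were mapped by the authors to a single repeat, so the coordinates place the sequence and not the repeat that was transcribed. The ends of 5 positions that the results turn on are given with the last base in capitals, each by its last 20 nt.
P60: tctttcttcttagccgagtA
P121: ttgaacgttcggcgtatgaG
P124: aacgttcggcgtatgagtgG
P132: gcgtatgagtggtgatcggA
P136: atgagtggtgatcggatagC

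The short ends were concentrated in a narrow cluster. P131 to P136 held 6754 of the 11500 reads (58.7%), and 5 positions were enough to hold 50% of them, while 42 positions were needed for 90%. By mean share of the untailed reads of a library, P132 came first with 0.834% ± 0.351 (SD, n = 26 libraries), followed by P136 with 0.728% ± 0.615, P133 with 0.684% and P131 with 0.614%. P134 with 0.563% and P135 with 0.512% closed the cluster. The differences between neighbours in this order were smaller than their SD over libraries. The median short end was P131, P132 or P133 in every library. The cluster made up between 47.8% and 69.1% of the short reads of a library, with a median of 58.6%.

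Around the cluster the shares dropped on both sides. Upstream, P130 held 0.207% and P129 0.199% on average. Downstream, P137 held 0.175%, P138 0.0718% and P139 0.133%, and P140, the first position outside the range, 0.180%. The drop at P137 falls together with a limit of the table. There, the base change T137C was found in 54.4% ± 16.5 (SD, n = 26) of reads with an end from P157 to P200. Whether it comes from differences between copies of the ribosomal RNA genes was not tested. The last 20 nt before a tail must match the reference, so molecules with the C cannot be recorded as ending at P137 to P156. An end at that C appears as P136 with a single added C, and 169 such reads stand beside 324 untailed reads at P137. C then makes up 34.3% of both kinds. These reads cannot be told apart from P136 with a C added to it, and the same holds for P131 with an added A, which is recorded as P132. Shares at P137 to P139 are therefore of molecules with T only.

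Outside the cluster, 1743 reads (15.2%) ended at P120 to P130 and 672 (5.84%) at P137 to P139. The windows from P22 to P57 and from P58 to P99 held 1072 reads (9.32%) and 794 reads (6.90%). Ends before P58 lie below the size that the gel purification was meant to keep, so their shares are not comparable with those of longer ends. Within these windows, single positions stood out at P24 and at P60, whereas P61 to P77 held between 1 and 12 reads each over all libraries. P24 lies within a few nt of the end of the forward primer, so reads ending there are almost all primer sequence. Whether they come from RNA ends or from the primer was not tested. Reads reach at most 91 nt into the insert. Of the 1650 reads ending at P91 or before, 1633 ran through to position 1. Among short reads, 80.4% matched the reference at every base read, from 95.4% of those at P22 to P57 to 78.3% of those at P100 to P136.

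**Figure D1:**
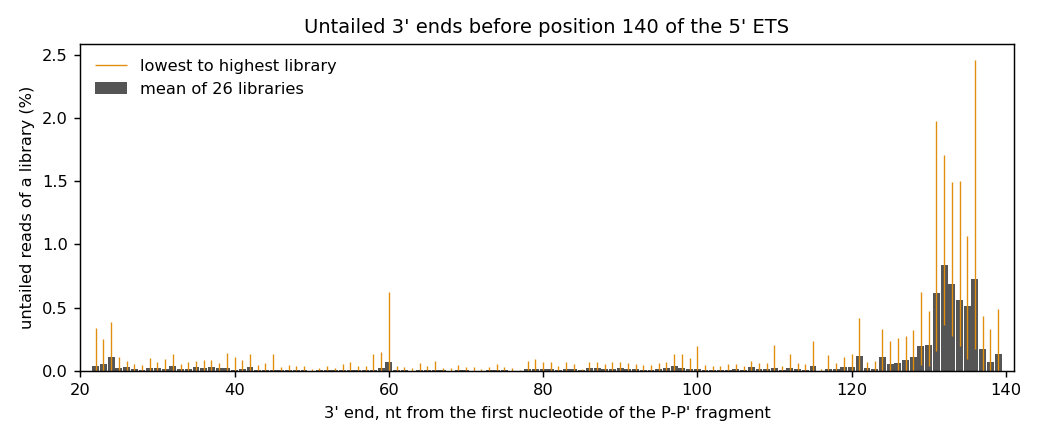
Share of untailed reads at each 3′ end from P22 to P139, in percent of the untailed reads of a library (bars, mean of 26 libraries; lines, lowest to highest library). The means peak at P132 with 0.834% and P136 with 0.728%, and the highest single value is 2.46% at P136.

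The last base of the short ends was not drawn evenly from the sequence. A was the last base of 28.4% of the short reads and of 19.5% of the positions, while T ended 21.4% of the reads and 35.6% of the positions. G ended 31.4% of the reads (28.8% of the positions) and C 18.8% (16.1%). P132 with 1456 reads and P134 with 1018 both end in A, and both can hold ends 1 nt shorter that carry an added A. Most of the reads ending in A are at P132 and P134. The shares of last bases therefore reflect the cluster and describe no preference over the whole stretch.

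The share of all short ends varied between genotypes. It was 10.7% and 14.2% of the untailed reads in the 2 replicates of *mtr4 rrp41* RRP41Pi-Cat-, against 6.38% and 7.92% in *mtr4 rrp41* RRP41WT and 5.77% and 11.2% in *mtr4*. In *RRP44KD rrp6L2 rrp41* RRP41Pi-Cat- it was 3.33% and 3.29%, against 3.46% and 3.45% in *RRP44KD rrp6L2 rrp41* RRP41WT and 4.43% and 3.32% in *RRP44KD rrp6L2*. In *rrp6L2 rrp41* RRP41Pi-Cat- it was 7.003% and 6.91%, against 6.33% and 4.50% in *rrp6L2 rrp41* RRP41WT and 6.31% and 4.11% in *rrp6L2*. Both *rrp41* RRP41Pi-Cat- libraries lay high, at 10.6% and 13.3%, while *rrp41* RRP41Pi- had 6.56% and 6.77%, against 6.10% and 5.93% in *rrp41* RRP41WT and 8.34% and 5.94% in Col-0. The 95% Wilson interval ran from 13.3 to 15.1% in the highest library, *mtr4 rrp41* RRP41Pi-Cat- replicate 2, and from 2.62 to 4.14% in the lowest, *RRP44KD rrp6L2 rrp41* RRP41Pi-Cat- replicate 2, and covers counting error only. Inactive Exo9 libraries lay above all active ones of their background in *rrp6L2*, overlapped them in *mtr4* and Col-0, and lay at the low end of their range in *RRP44KD rrp6L2*.

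Over the 4 backgrounds, short ends made up 8.26% ± 3.79 (SD, n = 10) with inactive Exo9 and 5.85% ± 2.08 (SD, n = 16) with active Exo9. The pooled difference was 2.42 percentage points and the mean of the differences within backgrounds 2.16 points (exact permutation test within backgrounds, two-sided, 236250 relabelings, p = 0.0102). Adjusted over the 7 comparisons of this share, p was 0.0711 (Benjamini-Hochberg on the exact permutation tests), so the difference did not pass the threshold of 0.05 after adjustment. The mean change was 4.59 points in *mtr4*, 1.65 points in *rrp6L2*, 2.73 points in Col-0 and −0.351 points in *RRP44KD rrp6L2*. With only fully matching reads, which leaves reads with T137C out of the denominator, the pooled difference was 9.71 points (exact permutation p = 0.000275). The base change T137C was found in 68.2% ± 8.60 (SD, n = 10) of reads with inactive and 45.8% ± 14.3 (SD, n = 16) with active Exo9. It averaged 60.8% with inactive and 35.2% with active Exo9 in *mtr4*, and 72.2% and 44.8% in *RRP44KD rrp6L2*. In *rrp6L2* it was 73.7% and 38.1%, and in Col-0 67.1% and 64.9%. Ends up to P136 are recorded with either base and cannot be assigned to one. The part of T137C in the short-end difference was not tested.

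In the Col-0 background alone, the difference between 4 libraries with inactive Exo9 (9.31% ± 3.26, SD) and 4 with active Exo9 (6.58% ± 1.18) was 2.73 points (exact permutation test, p = 0.171, smallest possible 0.0286). It was 1.39 points without *rrp41* RRP41Pi-Cat- replicate 2 and 6.87 points with only fully matching reads. The 2 forms of mutated RRP41 differed in the values behind this mean. With RRP41Pi-Cat- alone, the difference from active Exo9 was 5.38 points and both libraries lay above all 4, which is the most extreme order that 2 against 4 libraries can take (exact permutation p = 0.0667). With RRP41Pi- alone it was 0.0829 points (exact permutation p = 1). This division was chosen after the values were seen.

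**Figure D2:**
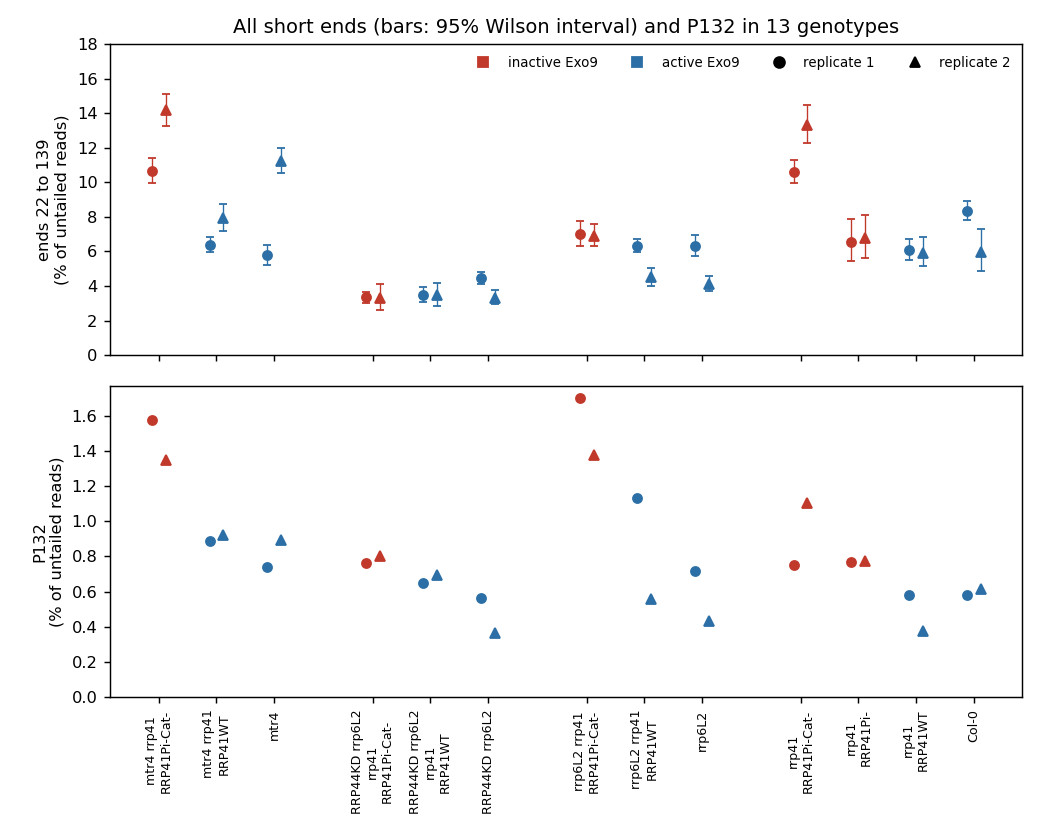
Share of all short ends (top, with 95% Wilson intervals) and of P132 (bottom) in percent of untailed reads, for each library of the 13 genotypes in the *mtr4*, *RRP44KD rrp6L2*, *rrp6L2* and Col-0 backgrounds, from left to right. At P132, the lowest library with inactive Exo9 lies above the highest with active Exo9 in each background, for example 1.35% against 0.924% in *mtr4*, whereas the share of all short ends overlaps in *mtr4* and Col-0.

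Between backgrounds, with Exo9 active, none of the 4 comparisons of the short-end share passed the threshold. The share was 7.83% ± 2.45 (SD, n = 4) in *mtr4*, 3.66% ± 0.517 in *RRP44KD rrp6L2*, 5.31% ± 1.17 in *rrp6L2* and 6.58% ± 1.18 in Col-0. *RRP44KD rrp6L2* lay 1.65 points below *rrp6L2* (difference −1.65, exact permutation p = 0.0571), with 1 of its 4 libraries, *RRP44KD rrp6L2* replicate 1 at 4.43%, above the lowest of *rrp6L2* at 4.11%. The other differences were −1.27 points for *rrp6L2* against Col-0 (exact permutation p = 0.286), 1.25 points for *mtr4* against Col-0 (exact permutation p = 0.486) and 2.52 points for *mtr4* against *rrp6L2* (exact permutation p = 0.114). *mtr4* replicate 2, at 11.2%, set the spread of its group, and without it *mtr4* lay 0.113 points above Col-0 and 1.38 points above *rrp6L2*. Without *mtr4* replicate 1 these differences were 1.94 and 3.20 points, and the second then had an exact permutation p of 0.0286. Without *rrp6L2* replicate 2, *RRP44KD rrp6L2* against *rrp6L2* was −2.05 points with the same exact permutation p of 0.0286, and without Col-0 replicate 1, *rrp6L2* against Col-0 was −0.679 points. With only fully matching reads, *mtr4* lay below Col-0 (−5.02 points, exact permutation p = 0.143), and *rrp6L2* against Col-0 was −7.90 points (exact permutation p = 0.0286). Lines with RRP41WT had 5.51% ± 1.57 (SD, n = 8) and lines with endogenous RRP41 6.18% ± 2.57 (SD, n = 8), a difference of −0.675 points (exact permutation test within backgrounds, p = 0.434), which turned to 0.0485 points without *mtr4* replicate 2 and to 0.886 points with only fully matching reads.

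The short ends were also compared in 4 windows. None of 28 tests, which cover these windows and the 7 comparisons, passed the adjusted threshold, and 3 had an unadjusted exact permutation p under 0.05. The largest window, P100 to P136, held 6.54% ± 2.98 (SD, n = 10) with inactive and 4.43% ± 1.76 (SD, n = 16) with active Exo9 (exact permutation p = 0.00669, adjusted 0.187). *RRP44KD rrp6L2* had less than *rrp6L2* in both windows nearest the 5′ end, without overlap. The share at P22 to P57 was 0.415% ± 0.0918 against 0.732% ± 0.216 (SD, n = 4 each), and that at P58 to P99 was 0.199% ± 0.0623 against 0.483% ± 0.145 (exact permutation p = 0.0286 and adjusted 0.267 for both).

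Single positions were then compared across the whole table. Of the short positions, 23 had at least 50 untailed reads over all libraries and could be tested, and 95 had fewer. Between inactive and active Exo9, 3 of the 23 passed the adjusted threshold, all 3 higher with inactive Exo9, and 7 had an unadjusted exact p under 0.05. Among all 110 positions tested from P22 to P482, 29.1% passed, 12.7% higher and 16.4% lower. The count among the short positions thus lies below that of the table in total and near it for higher shares. The median difference was 0.0706 points over the 23 short positions and 0.00325 points over all 110. Shares of a library add up to a whole, so a lower share at longer positions raises others.

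P132 was the short end that differed most. It made up 1.58% and 1.35% of the untailed reads of *mtr4 rrp41* RRP41Pi-Cat-, against 0.886% and 0.924% in *mtr4 rrp41* RRP41WT and 0.738% and 0.894% in *mtr4*. In *RRP44KD rrp6L2 rrp41* RRP41Pi-Cat- it made up 0.766% and 0.800%, against 0.647% and 0.697% in *RRP44KD rrp6L2 rrp41* RRP41WT and 0.564% and 0.365% in *RRP44KD rrp6L2*. In *rrp6L2 rrp41* RRP41Pi-Cat- it made up 1.71% and 1.38%, against 1.13% and 0.558% in *rrp6L2 rrp41* RRP41WT and 0.715% and 0.431% in *rrp6L2*. Every library with inactive Exo9 thus lay above every active one of its background, and this was also the case in Col-0. There, *rrp41* RRP41Pi-Cat- had 0.753% and 1.11% and *rrp41* RRP41Pi- 0.771% and 0.773%, against 0.582% and 0.375% in *rrp41* RRP41WT and 0.581% and 0.615% in Col-0. P132 rests on 9 to 191 reads a library.

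Over all backgrounds, P132 made up 1.10% ± 0.376 (SD, n = 10) with inactive and 0.669% ± 0.211 (SD, n = 16) with active Exo9. The pooled difference was 0.429 points and that within backgrounds 0.491 points (exact permutation test, p = 4.23e-06, the smallest this design allows, Benjamini-Hochberg adjusted 4.66e-05). Of the 110 positions tested, 3.64% lay above active Exo9 without overlap in all 4 backgrounds, and P132 was the only one of them among the short ends. Counted within the short reads, a denominator chosen after seeing the data, P132 made up 15.4% ± 6.83 (SD, n = 10) with inactive and 12.1% ± 3.99 (SD, n = 16) with active Exo9 (exact permutation p = 0.00505). The differences within backgrounds averaged 4.76 points on this denominator. Libraries with inactive and active Exo9 then overlapped in *mtr4* and Col-0, so the separation in all 4 backgrounds holds for the share of untailed reads only. P131 with an added A would be recorded as P132, so the change is that of both. The neighbours in the cluster were also higher on average, by 0.285 points at P131, 0.234 at P133, 0.0971 at P134, 0.0973 at P135 and 0.249 at P136, but did not pass the adjusted threshold (adjusted p from 0.131 to 0.800 in the exact permutation tests). P133 passed with the replicate block (adjusted exact permutation p = 0.0402), and P136 without *mtr4* replicate 2 (0.369 points, adjusted exact permutation p = 0.0296). The differences rested in part on single libraries. That at P136 was 0.0732 points without *mtr4 rrp41* RRP41Pi-Cat- replicate 2, that at P131 0.153 points without *rrp41* RRP41Pi-Cat- replicate 2, and that at P135 0.0529 points without *rrp41* RRP41Pi-Cat- replicate 1.

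P124 and P121 were the other called positions. P124 made up 0.278% and 0.328% of the reads in *mtr4 rrp41* RRP41Pi-Cat-, against 0.0420 to 0.144% in the 4 *mtr4* libraries with active Exo9. In the *rrp6L2* background it was 0.0397% and 0.0793%, against 0.0783 to 0.0985%, and the lowest of these rests on 2 reads, so no direction is read in this background. Over all libraries it held 0.171% ± 0.121 (SD, n = 10) with inactive and 0.0764% ± 0.0425 (SD, n = 16) with active Exo9 (difference 0.0944 points, adjusted p = 0.0305 in the exact permutation tests). P121 made up 0.395% and 0.419% in *mtr4 rrp41* RRP41Pi-Cat-, against 0.0840 to 0.288% with active Exo9 in *mtr4*, and 0.166% ± 0.164 (SD, n = 10) against 0.0825% ± 0.0854 (SD, n = 16) over all libraries (adjusted p = 0.0393 in the exact permutation tests). In *rrp6L2* its shares rest on so few reads, 1 and 0 with inactive Exo9, that no direction is read. Both rest on few reads, at most 38 in a library for P121 and 19 for P124. Leaving out 1 library ended the call of P121 in 12 of 26 cases and that of P124 in 8 of 26, with adjusted exact permutation p up to 0.0994 and 0.0889, and P121 fell to 0.0556 points without *mtr4 rrp41* RRP41Pi-Cat- replicate 2. Neither passed without the minimum of 50 reads or on the log2 scale. P132 kept its call in all 26.

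**Figure D3:**
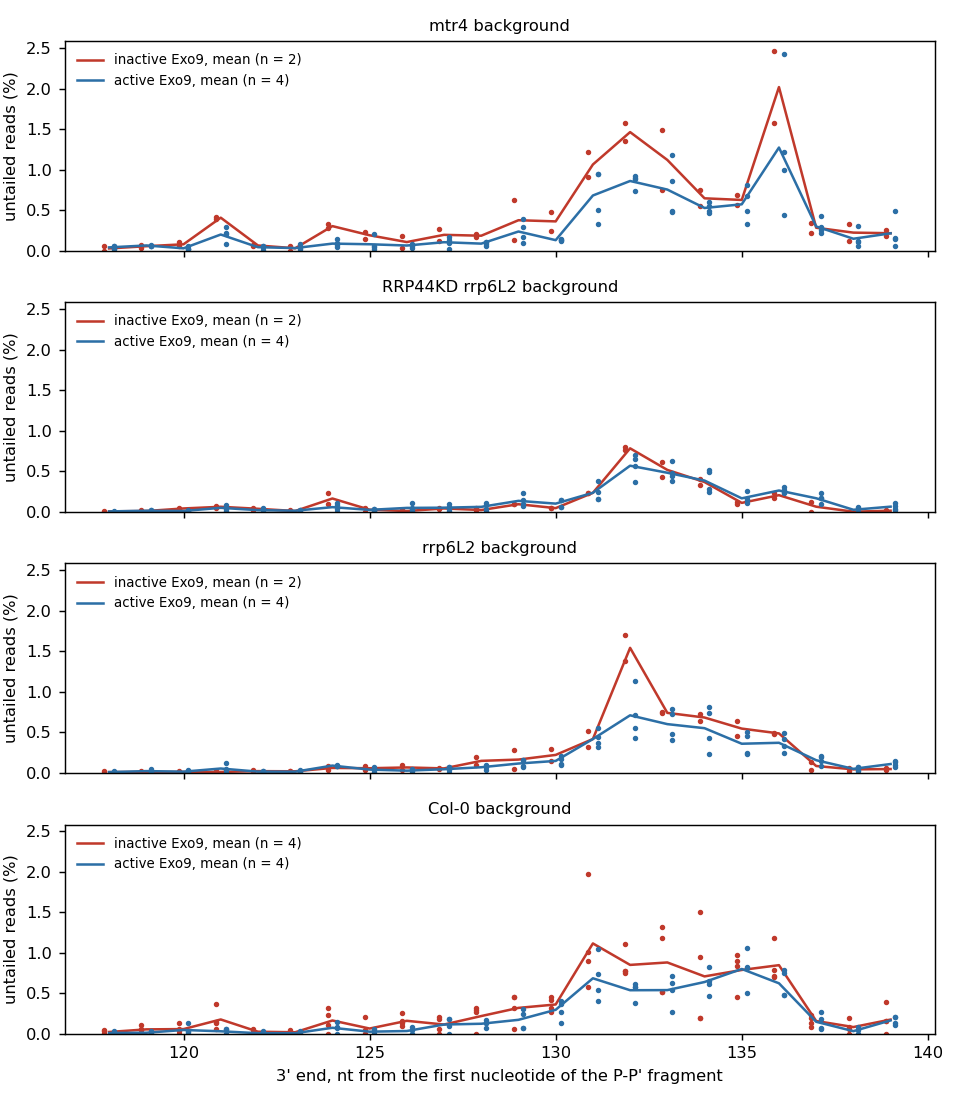
Share of untailed reads at 3′ ends from P118 to P139 in percent, by background, with inactive Exo9 (red) and active Exo9 (blue). Points are libraries and lines are means. P132 with inactive Exo9 averages 1.46% in *mtr4*, 0.783% in *RRP44KD rrp6L2*, 1.54% in *rrp6L2* and 0.851% in Col-0, and P136 is high in *mtr4* with both forms of Exo9.

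The 4 backgrounds also differed at single short positions, by another test than that used for Exo9. With Exo9 active, 8 of the 23 short positions passed the adjusted threshold of the exact permutation test of the spread between background means, and 44.5% of all 110 positions did, so short ends were not called more often than others. The 8 were P136, P135, P130, P121, P138, P60, P115 and P119. P136 had the widest range of means, 1.01 points. In the *mtr4* background with active Exo9 it made up 0.446 to 2.43%, with single values of 1.00% and 1.22% in *mtr4 rrp41* RRP41WT and 0.446% and 2.43% in *mtr4*. It made up 0.230 to 0.306% in *RRP44KD rrp6L2*, 0.248 to 0.488% in *rrp6L2* and 0.478 to 0.784% in Col-0. The means were 1.27% ± 0.837, 0.262% ± 0.0330, 0.370% ± 0.104 and 0.624% ± 0.165 in this order (SD, n = 4 each, adjusted p = 0.0157 in the exact permutation tests). The *mtr4* mean rests in large part on *mtr4* replicate 2.

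P135 had another order. It made up 0.573% ± 0.213 in *mtr4*, 0.165% ± 0.0649 in *RRP44KD rrp6L2* and 0.358% ± 0.137 in *rrp6L2*, and was highest in Col-0 with 0.801% ± 0.230 (SD, n = 4 each, adjusted p = 0.00909 in the exact permutation tests). P130 made up 0.130% ± 0.00957 in *mtr4*, 0.0997% ± 0.0514 in *RRP44KD rrp6L2* and 0.146% ± 0.0537 in *rrp6L2*, and was likewise highest in Col-0 with 0.296% ± 0.120. P121 and P60 were highest in *mtr4*. P121 averaged 0.199% ± 0.0846 (SD, n = 4) there and at most 0.0522% in another background. P60 averaged 0.107% ± 0.0653 in *mtr4*, 0.0222% in *rrp6L2* and 0.0426% in Col-0, and was not detected in any of the 6 libraries of the *RRP44KD rrp6L2* background, where 3 reads correspond to shares from 0.0204% to 0.141%. The highest P60 share was 0.620%, in *mtr4 rrp41* RRP41Pi-Cat- replicate 2. P115, P119 and P138 rest on 57, 55 and 128 reads in all. P138 is recorded from molecules with T at P137 only. With active Exo9, T137C averaged 35.2% in *mtr4*, 44.8% in *RRP44KD rrp6L2*, 38.1% in *rrp6L2* and 64.9% in Col-0. Its part in the call of P138 was not tested.

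Set side by side, the 4 *mtr4* libraries lay above all 4 Col-0 libraries at 3 of the 23 short positions, where 16.4% of all positions did, and below them at 0 of 23 (10% of all positions). *rrp6L2* lay below Col-0 without overlap at 1 (10% of all positions) and above it at 0 (8.18%). *RRP44KD rrp6L2* did not separate from *rrp6L2* at any of the 23, where 16.4% of all positions were lower and 8.18% higher without overlap. *mtr4* separated from *rrp6L2* at 3, with 2 higher (13.6% of all positions) and 1 lower (7.27%).

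Short ends carried fewer tails than the pool of longer ends. Of 12361 reads ending at P22 to P139, 861 (6.97%) had at least 1 added nucleotide, against 23.4% of the reads ending at P140 to P482. Over libraries the share was 7.50% ± 3.96 for short and 19.3% ± 10.6 for longer ends (SD, n = 26). The difference averaged −11.8 points, with an SD of 8.61 over libraries (sign-flip permutation test of the mean difference with 100000 resamples, p = 1e-05, the smallest they can give). The lower share was at short ends in 21 of 26 libraries. The other 5 were *rrp41* RRP41WT replicate 2, *rrp41* RRP41Pi- replicate 1, both replicates of *rrp41* RRP41Pi-Cat- and *rrp6L2 rrp41* RRP41Pi-Cat- replicate 2. In the first 4 of these, longer ends also had few tails, from 1.79% to 7.54%. In the Col-0 background with inactive Exo9, 4.03% ± 1.65 of short and 3.43% ± 1.57 of longer ends were tailed (SD, n = 4). By the paper, only P161 and P176 of the main longer intermediates in Col-0 and *rrp41* RRP41WT carry added nucleotides. P168 and P186 do not, and longer ends were compared here as a pool only. The part of P161 and P176 in the difference was not tested. The paper does not exclude that part of the single-nucleotide mismatches are sequence polymorphisms. Counting tails of 2 nt or more only, the difference between short and longer ends was −6.86 points (sign-flip permutation p = 1e-05).

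Of the tailed short reads, 507 had a single added nucleotide, of which 243 were A and 184 C, and 354 had a tail of 2 nt or more, of which 202 consisted of A only. By the methods, longer tails were kept only if they held stretches of A or T, so their composition is in part set by this filter. The C tails include the 169 reads at P136 described above. Among positions with at least 50 untailed reads, the tailed share was highest at P134 with 19.01%, P136 with 13.9% and P138 with 12.9%. With inactive Exo9, 8.20% ± 5.11 (SD, n = 10) of the short reads were tailed, and with active Exo9 7.06% ± 3.16 (SD, n = 16). The pooled difference was 1.15 points and that within backgrounds 2.19 points (exact permutation p = 0.0349). The call did not hold in any of the 3 alternatives run. Counting tails of 2 nt or more only, the difference was 0.154 points (exact permutation p = 0.297), at P58 to P139 it was 1.12 points (exact permutation p = 0.0585), and with the replicate block the exact permutation p was 0.0502. Leaving out 1 library ended it in 7 of 26 cases, with p up to 0.106 and the lowest value, 0.318 points, without *RRP44KD rrp6L2 rrp41* RRP41Pi-Cat- replicate 2. The tailed share also followed the background. With active Exo9 it was 5.41% ± 2.01 (SD, n = 4) in *mtr4*, 10.8% ± 1.48 in *RRP44KD rrp6L2*, 7.85% ± 0.797 in *rrp6L2* and 4.16% ± 2.93 in Col-0. No test was run on this order.

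**Figure D4:**
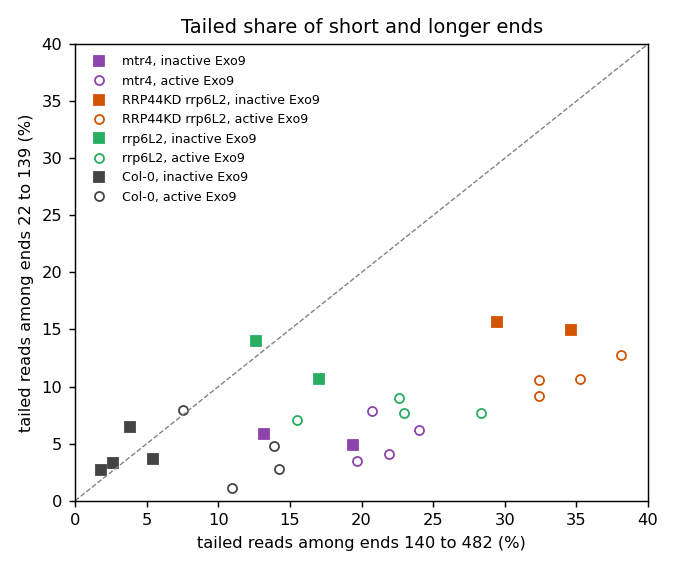
Percent of reads with at least 1 added nucleotide among ends from P22 to P139 (vertical axis) and from P140 to P482 (horizontal axis), 1 point per library, filled for inactive and open for active Exo9, by background. The dashed line marks equal shares, and 21 of the 26 libraries lie below it.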

How the data were processed

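The authors deposited 1 table with a row for each deduplicated read, which gives its genotype and replicate, the position of its last base that matches the 5′ ETS, the encoded sequence and any added 3′ nucleotides. By the methods, read 2 was trimmed, its first 20 nt had to match the rRNA repeat exactly, and bases were removed from the 3′ end until they did. The deposited positions and tail lengths are whole numbers per read with no normalization by the authors. From them, the reads without a tail were counted at each position and divided by all untailed reads of the library, as a percent. Groups were compared with two-sided exact permutation tests, within backgrounds where several were pooled, and positions with at least 50 untailed reads were adjusted by Benjamini-Hochberg over the whole table, with a threshold of 0.05. The self-test on simulated data put in changes of larger factors than those at P132, P124 and P121. It required that most of the largest changes and few unchanged positions be called, so sensitivity to smaller changes was not measured. Python 3.11.15, numpy 2.4.6, pandas 2.3.3 and scipy 1.17.1 were used.

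The positions named are the 10 with the highest mean share, up to 10 called in each of the 2 scans, and P139 and P140. P24 and P61 to P77 were chosen after seeing their values. The range, windows and lists were chosen with earlier results of these data known. Deduplication used random bases, so intervals cover counting error and not ligation or amplification. In a library, 3 reads correspond to a share of 0.0178% to 0.205%, and lower shares rest on 1 or 2 reads. The tests treat each library as a unit, and 2 libraries of 1 genotype may be alike. Alternatives were other ranges and denominators, tailed reads included, fully matching reads (bases before position 1 ignored), thinning to 1464 reads, a log2 scale with a pseudocount of 0.1, other minimum counts, the replicate number as a block, and each library left out.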

Additional observations from a re-analysis of the deposited data

Results flagged for a closer look

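In groups of 4 to 10 libraries, 6 of 96 groups checked had 1 library far from the rest, and chance alone flags about 1 in 20 groups. For all short ends, Col-0 replicate 1 stood at 8.34%, against 5.93 to 6.10% in the other active Exo9 libraries of that background, and *RRP44KD rrp6L2* replicate 1 at 4.43%, against 3.32 to 3.46%. At P137 to P139, *rrp6L2* replicate 2 was low with 0.170%, against 0.345 to 0.366% in its group. At P132, *rrp41* RRP41WT replicate 2 was low with 0.375%, against 0.581 to 0.615%, and *rrp41* RRP41Pi-Cat- replicate 2 was high with 1.11%, against 0.753 to 0.773%. At P130, *mtr4 rrp41* RRP41WT replicate 1 had 0.144%, against 0.123 to 0.126%.

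The change of the short-end share with inactive Exo9 had opposite signs in some backgrounds, with every library on its own side of the active mean. The change was 4.59 points in *mtr4* and −0.351 in *RRP44KD rrp6L2*, which lie 4.94 points apart, and it was 1.65 points in *rrp6L2*, which is 2.00 points from *RRP44KD rrp6L2*. The active mean of *RRP44KD rrp6L2* includes the flagged replicate 1 at 4.43%. The other active libraries there, at 3.32 to 3.46%, overlapped the inactive ones at 3.33% and 3.29%. At P58 to P99 the change was 0.558 points in *mtr4*, against −0.104 in *RRP44KD rrp6L2* (0.661 points apart) and −0.112 in *rrp6L2* (0.670 points apart). In this window, libraries with inactive and active Exo9 overlapped in each of these backgrounds. The inactive libraries of *RRP44KD rrp6L2* rest on 6 and 3 reads there. These differences between backgrounds were not tested.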

How the results depend on the processing

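The short-end difference between inactive and active Exo9 over all backgrounds kept its direction and an unadjusted exact permutation p under 0.05 in all 11 alternatives (1.06 to 9.71 points, or 0.418 on the log2 scale, p from 0.000275 to 0.0276) and all 26 omissions of a library (1.76 to 2.97 points, p from 0.00498 to 0.0342). The 9.71 points and the exact permutation p of 0.000275 are those with only fully matching reads, which takes reads with T137C out of the denominator. T137C was more frequent with inactive Exo9, so this alternative is no independent check of the difference. In Col-0 alone the exact permutation p of the short-end difference stayed above the threshold throughout (1.39 to 3.65 points with libraries left out). P132 kept its direction and call in all 31 alternatives.

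Other comparisons depended on settings. With tailed reads included, *rrp6L2* against Col-0 was −1.60 points and *RRP44KD rrp6L2* against *rrp6L2* −1.76 points (exact permutation p = 0.0286 each). With only fully matching reads, reads with T137C leave the denominator, and *rrp6L2* against Col-0 was −7.90 points (exact permutation p = 0.0286), *mtr4* against Col-0 −5.02 points and RRP41WT against endogenous RRP41 0.886 points, both reversed. When matching was asked of the short reads only, the other signs were kept and *RRP44KD rrp6L2* against *rrp6L2* was −1.30 points (exact permutation p = 0.0286). At P22 to P130, *RRP44KD rrp6L2* against *rrp6L2* was −0.677 points (exact permutation p = 0.0286) and RRP41WT against endogenous RRP41 −0.397 points (exact permutation p = 0.0247). The cause of the other changes was not tested.

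With libraries left out, *RRP44KD rrp6L2* against *rrp6L2* ranged from −2.05 points (without *rrp6L2* replicate 2, past the threshold) to −1.31, *mtr4* against *rrp6L2* from 1.38 to 3.20 points (without *mtr4* replicate 1, past the threshold), *mtr4* against Col-0 from 0.113 to 1.94, *rrp6L2* against Col-0 from −1.60 to −0.679, and RRP41WT against endogenous RRP41 from −1.08 to 0.0485 points (without *mtr4* replicate 2, reversed). Short positions called for Exo9 numbered 1 without a read minimum or on the log2 scale, 5 with tailed reads or with the replicate block, and 1 to 4 with libraries left out. Among backgrounds, 4 were called without a minimum and 5 to 10 with libraries left out. With tailed reads, 1 window test passed. The Exo9 difference in tailed share was 0.154 points for tails of 2 nt or more, 1.12 points at P58 to P139 and 1.15 points with the replicate block, none of which passed, and ranged from 0.318 to 1.76 points with libraries left out. P130 passed for Exo9 with tailed reads (0.107 points) and with the replicate block. With libraries left out, the Exo9 difference ranged from −0.00576 to 0.0239 points at P115, −0.000668 to 0.145 at P134, −0.00352 to 0.0397 at P138 and −0.0415 to 0.0110 at P139. At these uncalled positions, the sign turned at P139 with tailed reads (0.000635 points) and without *rrp41* RRP41Pi- replicate 1 (0.00144), *RRP44KD rrp6L2 rrp41* RRP41Pi-Cat- replicate 2 (0.00144) or *mtr4* replicate 2 (0.0110), at P115 and P134 without *rrp41* RRP41Pi-Cat- replicate 2 (−0.00576 and −0.000668), and at P138 without *mtr4 rrp41* RRP41Pi-Cat- replicate 2 (−0.00352).

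The replicate numbers of the labels were used as a block, although deviations of same-numbered libraries correlated over 0.1 in 37 of 78 pairs of genotypes only (from −0.317 to 0.532). Beside the counts above, it changed no call of a comparison of the short-end share.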
